A study of Mus musculus with 12 samples.

Results

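The genes described here encode the machinery with which neurons store and release transmitters and peptides, together with surface and cytoskeletal proteins of neurons, many of which are known targets of the repressor REST. The set holds 33 genes, given as a list of names with no threshold on a measured value, and a gene was read only through probe sets annotated to that gene alone. Of the 45101 probe sets of the array, 71 belonged to the 33 genes, and 55 of them lay in the upper 60% of probe sets by mean level. Those 55 stood for 32 of the 33 genes, among 12263 genes with a kept probe set. The exception was Vgf, a secreted neuropeptide precursor, whose single probe set was too dim.

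Expression was profiled in C57BL/6 mouse cells, sorted by FACS, after knockdown of the zinc finger protein ZNF335 (Zfp335 in the mouse) on embryonic day 14.5. The 12 arrays formed 4 groups of 3: ZNF335 knockdown 1 day after knockdown, control knockdown at 1 day, ZNF335 knockdown at 5 days, and control knockdown at 5 days. All groups shared the strain, the day of knockdown, a stage label of embryonic day 15.5 and a harvest label of postnatal day 0, so the stage labels did not tell the times apart. The titles name small interfering RNA, the design text names short hairpin RNA, and the source names call the controls neurons and the knockdowns cells. The description field of the 5-day samples names the opposite group to their titles, and the titles were followed, as the instrument files did. The labels do not say whether the 3 samples of each group are different animals, and p-values then reflect only sample-to-sample spread, which could be technical.

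Synaptic vesicles carry small transmitters and dock at the active zone of the nerve terminal, where calcium entering through the open channel is sensed by synaptotagmins and the SNARE proteins fuse the membranes. Dense-core vesicles carry peptides and growth factors, packed with granins, and are released more slowly and from wider areas of the cell. REST, also called NRSF, binds an element named RE1 in many of these genes and keeps them silent in non-neuronal cells and in neural progenitors, with the corepressors of the Rcor family, and it is lost as neurons mature.

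The promoters of 4 of these genes are shown because they held an exact copy of at least 1 of the 2 blocks of the RE1 element. The left block was TTCAGCACC and the right block GGACAGCGC, which in the canonical element stand 2 bases apart, and both strands were searched. RefSeq windows of 300 bases (build GRCm38.p6), from 250 bases before the start of the gene onwards, were at hand for 25 of the 33 genes, in 38 windows. The sequences run 5′ to 3′ along the gene and capitals mark the matched stretch. The Celsr3 window lies at chr9:108825795-108826094 on the plus strand, Syn1 at chrX:20920869-20921168, Scg2 at chr1:79439977-79440276 and Unc13a at chr8:71671708-71672007, the last 3 on the minus strand.
Celsr3: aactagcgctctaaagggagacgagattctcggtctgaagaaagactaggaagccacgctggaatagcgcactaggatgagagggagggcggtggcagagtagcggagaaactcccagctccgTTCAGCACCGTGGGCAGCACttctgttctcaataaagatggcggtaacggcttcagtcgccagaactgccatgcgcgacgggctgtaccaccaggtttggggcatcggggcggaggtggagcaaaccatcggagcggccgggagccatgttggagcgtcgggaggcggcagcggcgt
Syn1: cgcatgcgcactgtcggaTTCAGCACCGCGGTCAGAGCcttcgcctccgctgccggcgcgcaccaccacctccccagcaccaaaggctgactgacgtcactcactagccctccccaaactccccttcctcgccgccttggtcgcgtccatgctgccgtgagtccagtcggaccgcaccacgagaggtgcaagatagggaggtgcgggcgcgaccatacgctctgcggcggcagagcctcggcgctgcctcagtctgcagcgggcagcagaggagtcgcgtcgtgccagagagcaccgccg
Scg2: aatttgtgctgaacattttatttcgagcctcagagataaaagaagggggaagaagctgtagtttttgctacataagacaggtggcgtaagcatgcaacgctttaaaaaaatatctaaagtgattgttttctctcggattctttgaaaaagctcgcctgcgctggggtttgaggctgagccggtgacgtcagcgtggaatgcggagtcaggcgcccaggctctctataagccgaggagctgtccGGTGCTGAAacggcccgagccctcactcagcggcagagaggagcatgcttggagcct
Unc13a: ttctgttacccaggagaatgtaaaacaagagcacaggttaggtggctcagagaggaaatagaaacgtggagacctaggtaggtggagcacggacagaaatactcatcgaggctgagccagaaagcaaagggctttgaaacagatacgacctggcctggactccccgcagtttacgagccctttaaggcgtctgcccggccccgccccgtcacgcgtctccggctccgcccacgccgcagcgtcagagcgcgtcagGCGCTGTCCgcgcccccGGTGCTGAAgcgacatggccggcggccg
In Celsr3 and Syn1 the capitals are a whole element at the canonical spacing with 16 of its 18 letters matched. Counted from 1 at the 5′ base of the left block, Celsr3 carried the substitutions A14G and G19A and Syn1 carried A14T and C18A. With the start base counted as 0, the element of Celsr3 ran from position -127 to -108 and that of Syn1 from -232 to -213. Among all 32851 mouse windows, 12 (0.0365%) matched 16 or more letters. In Scg2 the capitals are the left block alone, read on the opposite strand, at positions -7 to 1. Unc13a held both blocks on the opposite strand with 8 bases between them. The left block stood in 0.371% of all windows and in those of 4 of the genes, and the right block in 0.405% of all windows and in 1 of the genes. The other windows of the set, those of Scg2 and Unc13a included, matched 9 to 13 letters, the 13 in Unc13a. The cAMP response element, TGACGTCA, stood in the windows of Chgb, Scg2 and Syn1, and in 1.79% of all windows. In Syn1 and Scg2 it did not overlap the capitals. A match is a description of the letters in these windows and shows no binding.

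The knockdown target and the arrays bear on every comparison. Zfp335 had normalized log2 levels of 5.59 to 7.79 in the controls and 5.45 to 7.78 in the knockdowns at 1 day, and 6.71 to 7.64 against 5.59 to 7.25 at 5 days. Its log2 fold change was -0.64 (SE 0.73) at each time, and the groups overlapped, so it does not check the labels. The 6 arrays of 1 day fell into a strong set (control 2, knockdowns 2 and 3) and a weak set (controls 1 and 3, knockdown 1), named for the signal of RNAs that are added at hybridisation in fixed amounts (12.68 to 12.82 against 10.84 to 11.83 on the log2 scale). Zfp335 went with these sets at 1 day, at 7.51 to 7.79 in the weak set and 5.45 to 5.73 in the strong set. Correlations over all kept probe sets ran from 0.923 to 0.989 between arrays of 1 set and from 0.597 to 0.775 across the sets. Among the arrays of 5 days, knockdown 2 stood apart with a 3′ to 5′ signal ratio of 8.76 for Actb, against 1.51 to 2.91 on the other 11 arrays. At 1 day each group ran on a fluidics station of its own, so station and knockdown cannot be told apart, nor can chip lot and time.

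Levels are normalized log2 signals of each gene's brightest kept probe set, so they are compared between arrays and not between genes. Averaged over the 32 measured genes, the 1-day controls stood at 9.76, 8.61 and 8.82 and the 1-day knockdowns at 9.60, 8.23 and 8.27. The 5-day controls stood at 9.43, 9.54 and 9.70 and the 5-day knockdowns at 9.41, 9.88 and 9.52. At 1 day, control 1 and knockdown 1 were thus high and the other 4 arrays low, in both groups, while the 5-day arrays lay close together. Markers of neurons (Tubb3, Dcx, Map2, Mapt, Elavl3, Elavl4, Rbfox3 and Gap43) were likewise highest in control 1 and knockdown 1 at 1 day, with 11.24, 10.60 and 10.40 in the controls, against 11.23, 10.30 and 10.13 in the knockdowns. They averaged 10.96 to 11.31 in the 5-day controls and 10.91 to 11.22 in the 5-day knockdowns. The order of the other arrays differed: control 3 of 1 day lay above control 2 for the genes and below it for the markers. At 5 days the genes were highest in knockdown 2 and the markers in control 3. The link between the genes and these markers was not tested. These are bulk samples, in which fewer neurons and less RNA per neuron cannot be told apart.

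**Figure D1:**
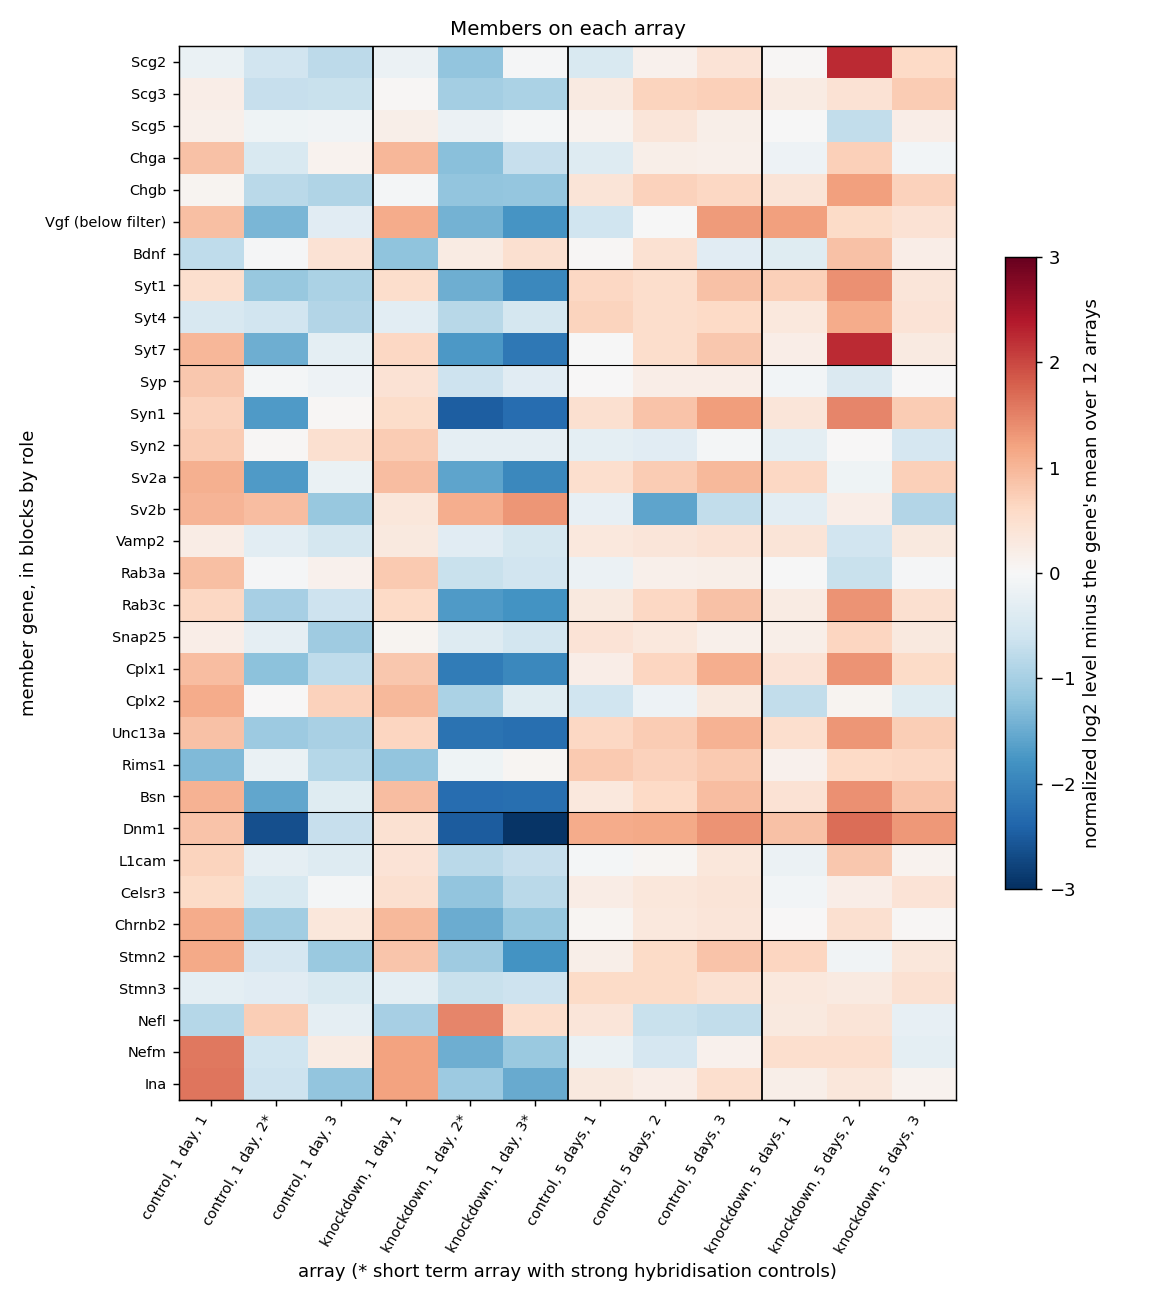
Normalized log2 level of each of the 33 genes on each of the 12 arrays, minus that gene's mean over the 12 arrays; rows are grouped by role, columns by group, and an asterisk marks a 1-day array of the strong set. Most rows are red in control 1 and knockdown 1 at 1 day and blue in the strong set, and Nefl runs the other way. Rims1 and Bdnf are blue in control 1 and knockdown 1 and near or above their means in the strong set.

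At 1 day after knockdown, the vesicle genes stood lower in the knockdowns than in the controls for 24 of the 32 measured genes and higher for 8, with none past the test. Of all kept probe sets 58.7% were lower too. The median log2 fold change was -0.42, beside -0.10 for all kept probe sets and -0.12 for those of like level. Each gene's knockdown values overlapped its control values, beside 0.736% of all probe sets that lay above all controls and 0.933% that lay below. The 24 genes included 4 of 6 genes of dense-core cargo, 6 of 8 synaptic vesicle proteins, 4 of 6 fusion and active zone genes, all 3 surface genes and 4 of 5 cytoskeletal genes. In this comparison 0% of the 27022 probe sets passed, 120 had an unadjusted p below 0.05 by limma, and none of the 32 genes did.

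Syn1, which encodes synapsin and tethers vesicles to the cytoskeleton, read 9.45, 7.05 and 8.79 in the controls, against 9.32, 6.28 and 6.46 in the knockdowns. Knockdown 1 lay within the control range, and knockdowns 2 and 3 lay below all controls, nearest to control 2 of the same hybridisation set. The log2 fold change was -1.08 (SE 0.81, n = 3 each, limma adjusted p = 0.832, exact permutation p = 0.3). Cplx2, a complexin that clamps and primes the SNARE complex, read 10.80, 9.68 and 10.37 against 8.72 and 9.32 in knockdowns 2 and 3 and 10.64 in knockdown 1. Its log2 fold change was -0.72 (SE 0.49, limma adjusted p = 0.832). Celsr3, an adhesion receptor that guides axons, read 11.21, 10.17 and 10.55 against 11.09, 9.44 and 9.81 (log2 fold change -0.53, SE 0.41, limma adjusted p = 0.832). Nefm, the medium neurofilament subunit, read 8.55, 6.35 and 7.20 against 8.17, 5.48 and 5.85 (log2 fold change -0.86, SE 0.70, limma adjusted p = 0.832). In all 4 genes knockdown 1 stood beside control 1 at the top, and the order of the arrays was that of the hybridisation sets.

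The hybridisation sets separated these genes more widely than the groups did. In 17 of the 32 genes all 3 strong-set arrays lay below all 3 weak-set arrays, in 2 (Rims1 and Nefl) they lay above, and in 13 the sets overlapped. Over all kept probe sets 46.4% lay below and 28.8% above. The median difference of the strong from the weak set was -1.09 for the genes and -0.26 for all kept probe sets. Dnm1, the GTPase that pinches off endocytic vesicles, differed by -2.89, Syn1 by -2.59, the active zone scaffold Bsn by -2.57, Sv2a by -2.34 and the calcium sensor Syt7 by -2.21. The opposite order held for Nefl, the light neurofilament subunit, at 1.63 and for Rims1, which primes vesicles at the active zone, at 1.03. Within the strong set the 2 knockdowns had a median of -0.38 against control 2, with 27 genes lower and 5 higher. Within the weak set knockdown 1 had a median of 0.30 against the mean of controls 1 and 3, with 29 genes higher and 3 lower. Against control 1 alone, knockdown 1 had a median of -0.13, with 25 genes lower and 7 higher, so the higher values in the weak set rested on control 3. With the set as a block the 1-day median was -0.035. Control 3 lay below control 1 in 29 genes, by a median of -0.92, which is more than the knockdowns differed from the controls.

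Leaving out 1 array moved the 1-day median from -0.42 to -0.050 without control 1, -0.18 without knockdown 2 and -0.19 without knockdown 3. It moved to -0.68 without control 2 and -0.99 without knockdown 1. Markers of microglia, the immune cells of the brain, moved with the same sets. Their mean over 10 genes was 8.18, 5.40 and 8.04 in the 1-day controls and 7.49, 5.33 and 5.23 in the knockdowns, and all 10 were lower in the knockdowns (median -1.30), with none past the test. Markers of Cajal-Retzius cells, early neurons of the cortical surface, stood at 9.81, 6.50 and 6.82 in the controls, against 8.98, 6.36 and 5.89 in the knockdowns over 3 genes. Markers of radial glia, the neural stem cells, averaged 10.45 to 10.97 in the controls and 10.43 to 11.02 in the knockdowns. The part of other cells in the 1-day values was not tested.

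**Figure D2:**
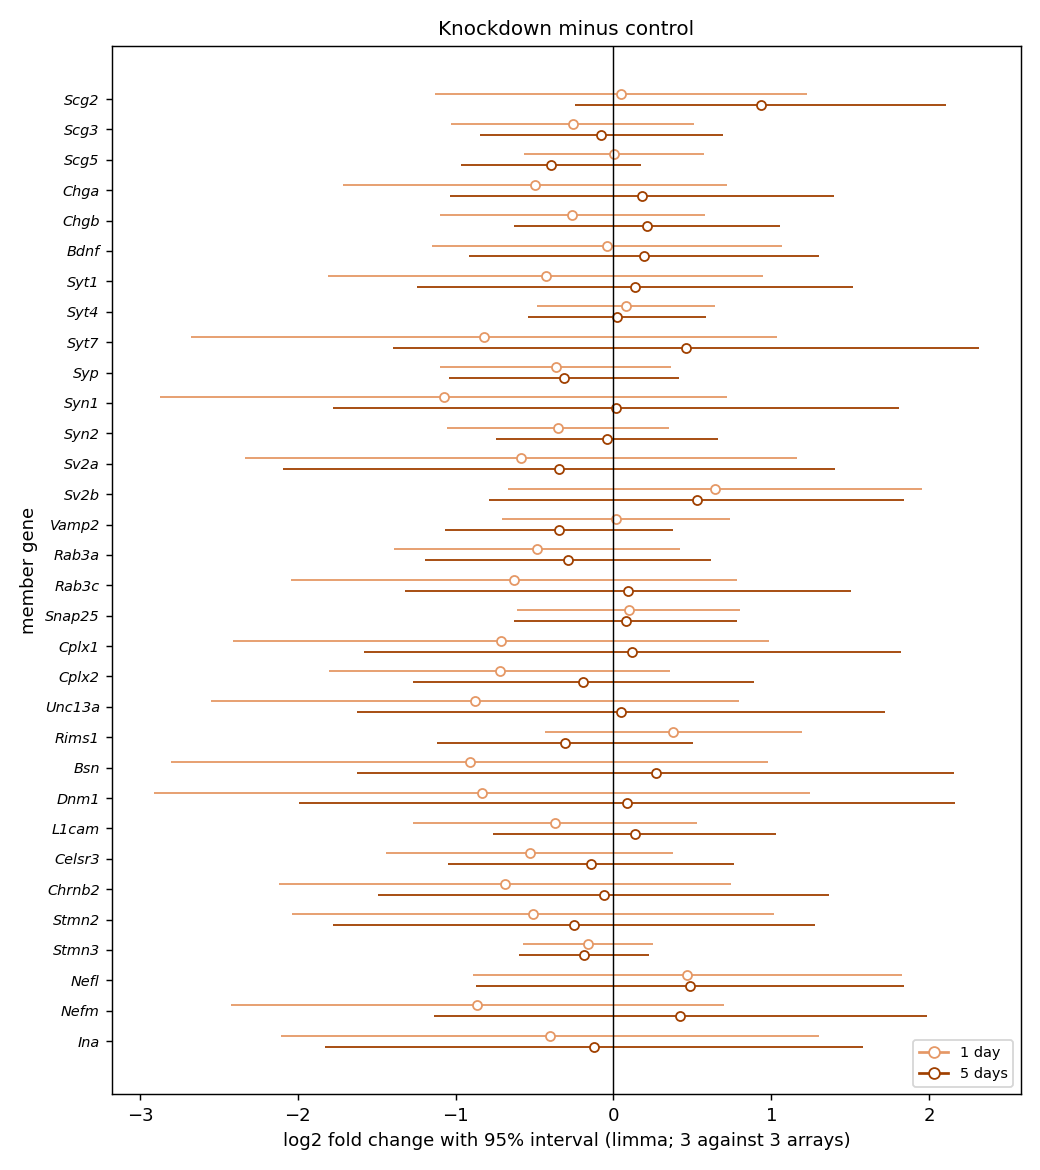
Log2 fold change of knockdown against control for the 32 measured genes (limma, 3 against 3 arrays; lines are 95% intervals), at 1 day and at 5 days. Every interval includes 0, and the 1-day points lie mostly to the left while the 5-day points lie around 0.

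At 5 days after knockdown, the same genes stood on both sides of the controls. Of the 32 genes 18 were higher and 14 lower, with a median log2 fold change of 0.036 beside -0.0063 for all kept probe sets, and none passed the test. Here 0% of probe sets passed by limma, with 34 at an unadjusted p below 0.05. The 3 calcium sensors were all higher (0.02 to 0.46) and 5 of 8 synaptic vesicle proteins were lower (-0.34 to 0.53 over the 8). Without knockdown 2, the array with the high 3′ to 5′ ratio, 27 of the 32 genes were lower and 5 higher. Their median was then -0.14, beside -0.022 for all kept probe sets, so the even split rested on that array. Knockdown 2 held the highest of the 6 values for 19 of the genes and the lowest for 7, beside 36.0% and 34.5% of all kept probe sets.

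Syp, the vesicle membrane protein synaptophysin, read 9.51, 9.70 and 9.70 in the controls, against 9.40, 9.06 and 9.50 in the knockdowns. Its 3 knockdown values lay below its 3 control values, by a log2 fold change of -0.31 (SE 0.33, limma adjusted p = 1.000). Rims1 read 9.70, 9.60 and 9.70 in the controls against 9.03, 9.51 and 9.53 in the knockdowns (log2 fold change -0.31, SE 0.37, limma adjusted p = 1.000), also without overlap. For both genes the exact permutation p was 0.1, the smallest that 3 against 3 arrays allow. These 2 of the 32 genes lay below all controls and 0 above, beside 1.69% and 1.32% of all probe sets. Syp had -0.19 without knockdown 2, and Rims1 had -0.14 without knockdown 1. The second probe set of Rims1 had 0.02, so its probe sets disagreed.

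Scg2, secretogranin II, a granin that is cut into neuropeptides, read 6.51, 7.09 and 7.37 in the controls, against 6.995, 9.21 and 7.56 in the knockdowns. Knockdown 2 stood far above the other 5 arrays, whose values mixed. The log2 fold change was 0.93 (SE 0.53, limma adjusted p = 1.000) and 0.29 without knockdown 2. Scg5, a chaperone of a prohormone convertase, read 11.63, 11.89 and 11.71 against 11.52, 10.80 and 11.73, with knockdown 2 lowest (log2 fold change -0.40, SE 0.26, limma adjusted p = 1.000) and -0.12 without knockdown 2. With the scanner as a block, which rests on control 1 as the only control on the scanner of the knockdowns, Scg2 had 1.41, Scg5 -0.28, Syp -0.19 and Rims1 -0.34. Microglial markers averaged 10.11, 7.82 and 8.59 in the 5-day controls and 10.96, 9.05 and 7.57 in the knockdowns, and those of endothelium and pericytes, the cells of blood vessels, 10.19, 7.48 and 8.43 against 10.75, 8.78 and 7.46. Their part in these values was not tested.

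The knockdown effect at 5 days minus that at 1 day was above 0 for 25 genes and below 0 for 7, with a median of 0.35 beside 0.042 for all kept probe sets. No gene passed this test of the difference, 0% of probe sets did, and 55 had an unadjusted p below 0.05 by limma. Nefm had 1.29 (SE 1.00), Scg2 0.89 (SE 0.75), Rims1 -0.69 (SE 0.52) and Scg5 -0.40 (SE 0.36), each with a limma adjusted p of 1.000. With the weak set alone standing for 1 day, 26 genes were below 0 and 6 above (median -0.32), and with the strong set alone 27 were above (median 0.35). The difference was thus not shown for any gene, and its direction over the set turned with the arrays used.

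Between 1 and 5 days, the vesicle genes were higher at the later time in controls and knockdowns alike, and few passed the test. In the controls 24 genes were higher and 8 lower (median log2 fold change 0.63, beside 0.0028 for all kept probe sets), with 2 past the threshold, both higher. Across the array 2.02% of probe sets passed upwards and 1.25% downwards. In the knockdowns 26 were higher and 6 lower (median 0.80, beside 0.057), with 3 past the threshold, all higher, beside 4.05% of probe sets upwards and 1.93% downwards. An unadjusted p below 0.05 was found for 5 of the genes in the controls and 14 in the knockdowns by limma, among 4650 and 6790 of the 27022 probe sets. Both time comparisons place all 1-day arrays on a chip lot of their own, so time and lot cannot be told apart.

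Syt4, a synaptotagmin found on dense-core vesicles, read 9.96, 9.86 and 9.57 in the 1-day controls and 11.10, 10.97 and 11.03 in the 5-day controls. It read 10.12, 9.60 and 9.91 in the 1-day knockdowns and 10.76, 11.56 and 10.85 in the 5-day knockdowns. All 6 later arrays lay above all 6 earlier ones. It rose by a log2 fold change of 1.24 in the controls (SE 0.25, limma adjusted p = 0.0293), or 2.36-fold, and by 1.18 in the knockdowns (SE 0.25, limma adjusted p = 0.0281). Its second probe set gave a like direction, and in the weak and the strong set alone the controls had 1.27 and 1.17.

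Stmn3, a stathmin-family regulator of microtubules in neurons, read 12.13, 12.07 and 11.96 in the 1-day controls and 12.99, 13.00 and 12.87 in the 5-day controls. The 1-day knockdowns read 12.13, 11.75 and 11.80 and the 5-day knockdowns 12.74, 12.69 and 12.87. The times did not overlap, and the group SDs were 0.09 and 0.07 for controls, against 0.20 and 0.09 for knockdowns. It rose by 0.90 in the controls (SE 0.19, limma adjusted p = 0.0295) and by 0.87 in the knockdowns (SE 0.19, limma adjusted p = 0.0269). Both calls were lost when its 2 probe sets were averaged (0.71 and 0.56, limma adjusted p = 0.198 and 0.224) or when the arrays were scaled to a common trimmed mean (0.51 and 0.48, adjusted p = 0.137 and 0.141).

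Chgb, chromogranin B, a core protein of dense-core granules, read 8.78, 7.88 and 7.79 in the 1-day controls and 9.08, 9.38 and 9.30 in the 5-day controls. Its 1-day knockdowns read 8.63, 7.51 and 7.53 and its 5-day knockdowns 9.08, 9.93 and 9.39. Control 1 and knockdown 1 of day 1 came nearest to the later arrays. It rose by 1.58 in the knockdowns (SE 0.38, limma adjusted p = 0.0397) and had 1.10 in the controls (SE 0.38, limma adjusted p = 0.158). The control and knockdown changes were not shown to differ: the difference was 0.47 (SE 0.54, limma adjusted p = 1.000).

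Scg3, which sorts granins into granules, read 10.98, 10.07 and 10.10 in the 1-day controls and 11.05, 11.43 and 11.49 at 5 days. In the knockdowns it read 10.80, 9.76 and 9.82 at 1 day and 11.01, 11.20 and 11.53 at 5 days. Its log2 fold change was 0.94 in the controls (SE 0.35, limma adjusted p = 0.190) and 1.12 in the knockdowns (SE 0.35, limma adjusted p = 0.0828), without overlap in either. Rims1 read 7.59, 8.71 and 8.06 in the 1-day controls, against 9.70, 9.60 and 9.70 at 5 days. Its log2 fold change was 1.55 (SE 0.37, limma adjusted p = 0.0503), just short of the threshold, and 0.86 in the knockdowns (SE 0.37, limma adjusted p = 0.178). The second probe set of Rims1 had 1.99 in the controls (SE 0.51, limma adjusted p = 0.0680). In the knockdowns that probe set had 2.18 (SE 0.51, limma adjusted p = 0.0372), past the threshold.

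**Figure D3:**
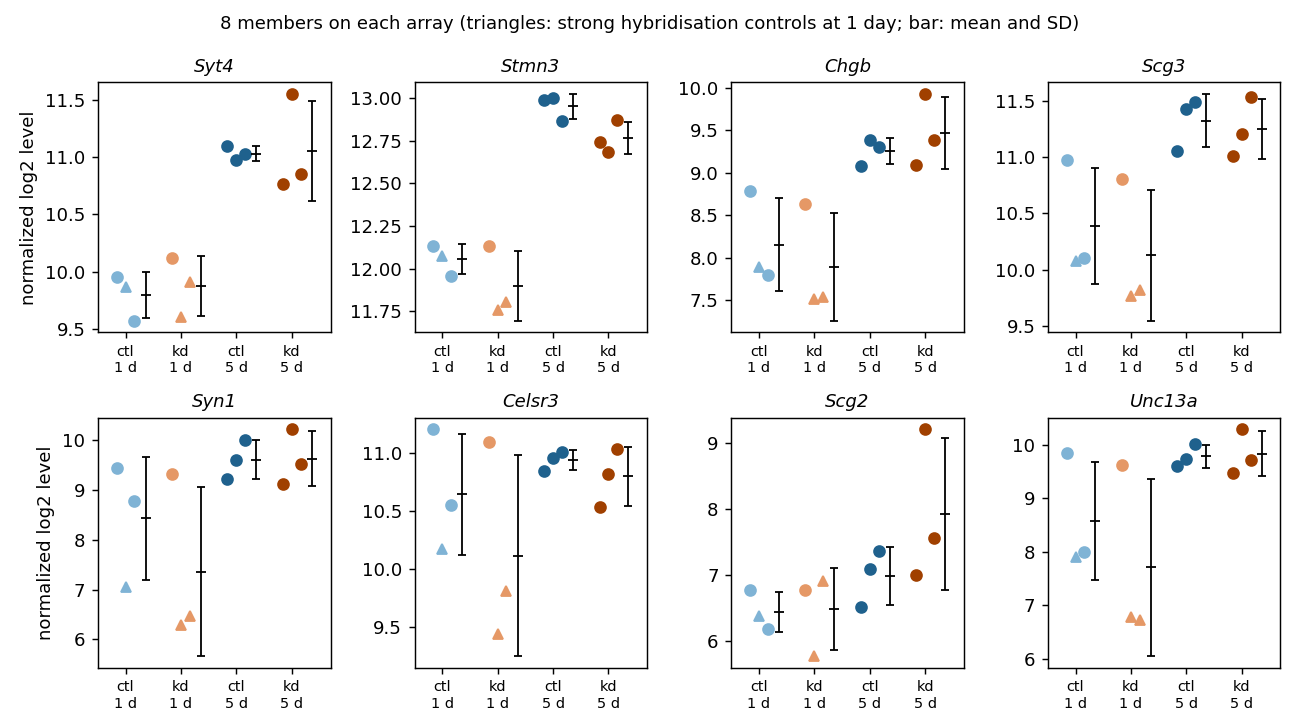
Normalized log2 level of 8 of the genes on each array (points), with the mean and SD of each group (bars); triangles are 1-day arrays of the strong hybridisation set. Syt4 and Stmn3 separate the times on all arrays, while in Syn1, Celsr3 and Unc13a control 1 and knockdown 1 of 1 day lie within or near the 5-day values.

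The groups of the 2 times did not overlap for 9 of the 32 genes in the controls, 8 higher and 1 lower, beside 17.1% and 12.7% of all probe sets. In the knockdowns 8 were higher and 1 lower, beside 13.7% and 9.43%. The lower gene was Syn2, a second synapsin, in the controls (log2 fold change -0.65, SE 0.32) and Sv2b, a vesicle glycoprotein, in the knockdowns (-1.25, SE 0.59). By role, the 3 calcium sensors had 0.70 to 1.24 in the controls and 1.18 to 1.98 in the knockdowns. The second kept probe set of Syt1 had -0.26 and -0.62. The 3 of Syt7 ran from -0.35 to 0.70 in the controls and from -0.21 to 1.98 in the knockdowns. Of the 6 measured dense-core genes 5 were higher in each, with medians of 0.39 and 0.80. The 8 synaptic vesicle proteins were split, 4 and 4 in the controls (median 0.27) and 5 and 3 in the knockdowns (median 0.11), from -1.25 for Sv2b to 2.28 for Syn1 in the knockdowns. Of the 6 fusion and active zone genes 5 were higher, with medians of 0.96 and 1.35. The exception, Cplx2, was lower only by its brightest probe set (controls -0.76, knockdowns -0.23, SE 0.49 each). Its other kept probe sets were higher at 5 days (controls 0.31 and 0.50, knockdowns 0.23 and 0.52, SE 0.83 and 0.46). Dnm1 had the largest change in both, 2.02 (SE 0.94) and 2.94 (SE 0.94), with limma adjusted p above the threshold, while its second probe set had 0.053 and 0.027 (SE 0.37 each). The 5 cytoskeletal genes ran from -0.59 (Nefm) to 0.90 (Stmn3) in the controls.

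Which 1-day arrays were used set the size of these changes. In the strong set control 2 was the only 1-day control. Against the strong set alone the median was 0.91 in the controls and 1.38 in the knockdowns, with 28 of 32 genes higher in each. Against the weak set alone it was 0.30 in the controls, with 23 higher, and -0.039 in the knockdowns, with 15 higher and 17 lower, where knockdown 1 was the only 1-day knockdown whose spread is taken from the other groups. Without knockdown 2 of 5 days the knockdown median was 0.73, with 28 higher. The 2 calls in the controls were both lost without any 1 control array of either time (limma adjusted p = 0.0553 to 0.127 for Syt4 and 0.0639 to 0.147 for Stmn3), and also without knockdown 3 of 1 day (0.051 and 0.0511), and that of Stmn3 without knockdown 3 of 5 days (0.0525). The 3 calls in the knockdowns were lost without knockdown 2 or 3 of 1 day, and in number fell to 0 to 2 without any 1 array of 5 days and to 2 without control 3 of 1 day. Without knockdown 1 of 1 day 15 of the genes passed. Over the array, leaving out 1 array gave 341 to 7727 of the 27022 kept probe sets past the threshold in the knockdowns. With the scanner as a block, where controls 2 and 3 are the only 5-day arrays on the scanner of the 1-day arrays, 0 genes passed in either comparison.

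**Figure D4:**
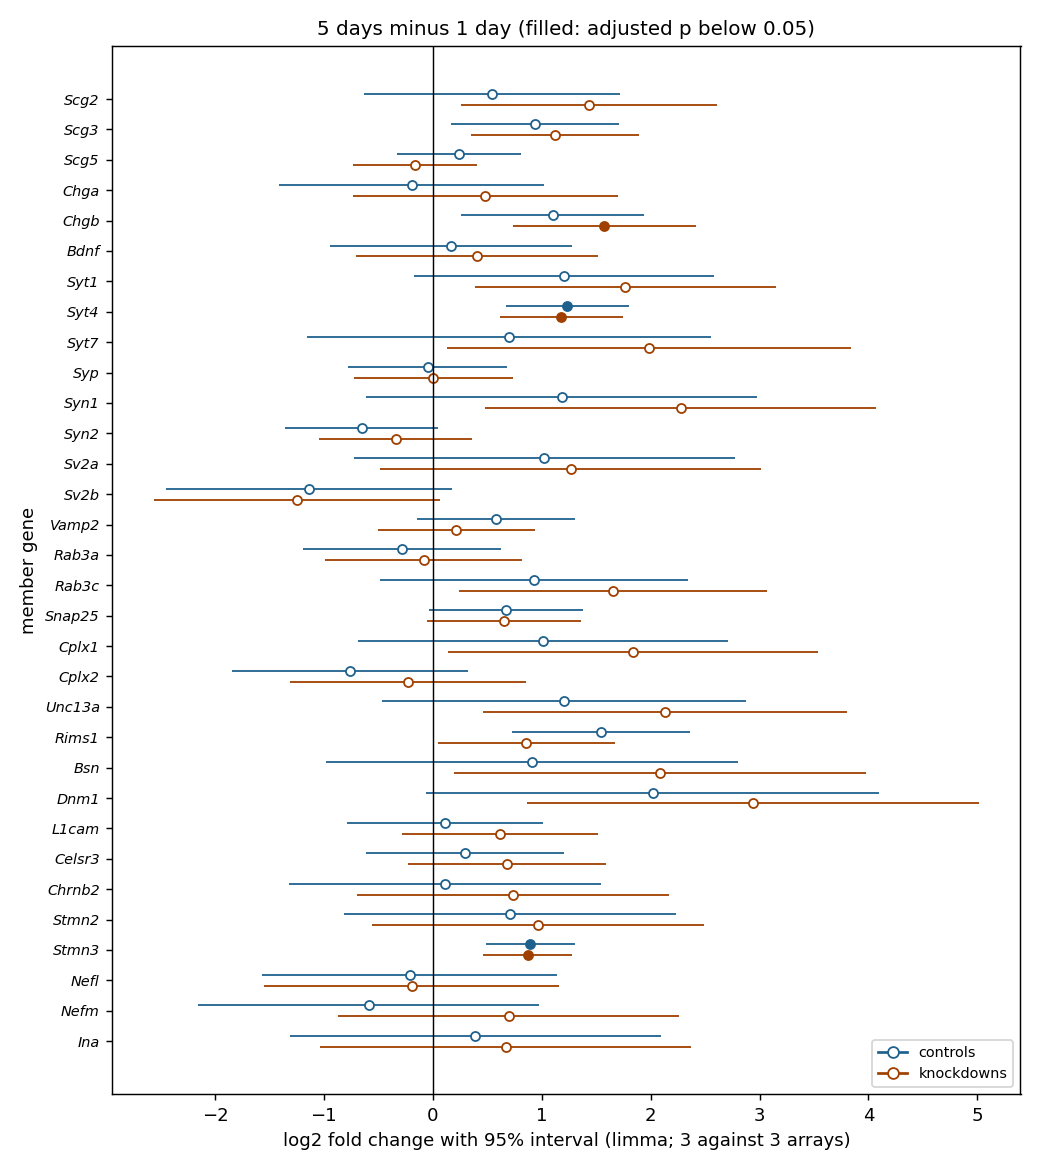
Log2 fold change of 5 days against 1 day for the 32 measured genes in controls and knockdowns (limma, 3 against 3 arrays; lines are 95% intervals; filled points passed the adjusted p threshold of 0.05). Filled points are Syt4 and Stmn3 in both and Chgb in the knockdowns, and the widest intervals belong to genes that differed between the hybridisation sets.

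Markers of other cells also differed between the times. All 7 interneuron markers were higher at 5 days (median 2.61 in the controls, 6 past the test, and 2.16 in the knockdowns, 4 past the test), with list means of 6.10 to 7.07 against 9.19 to 9.46 in the controls and 5.92 to 7.65 against 8.56 to 9.66 in the knockdowns. Of the 5 markers of intermediate progenitors, the dividing precursors of neurons, 3 fell past the test in each (median -1.16 and -1.67), with list means of 10.73 to 10.88 against 9.71 to 9.81 in the controls and 10.48 to 10.86 against 9.18 to 9.43 in the knockdowns. The 5 astrocyte markers were all higher, 2 past the test in the controls and 1 in the knockdowns, and 2 of 4 measured markers of oligodendrocyte precursors passed upwards in each. All 10 microglial and all 8 measured vascular markers were higher, none past the test. Of the 8 neuron markers 5 were higher and none passed, with medians of 0.49 and 0.32. The part of these cells in the time differences of the vesicle genes was not tested.

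**Figure D5:**
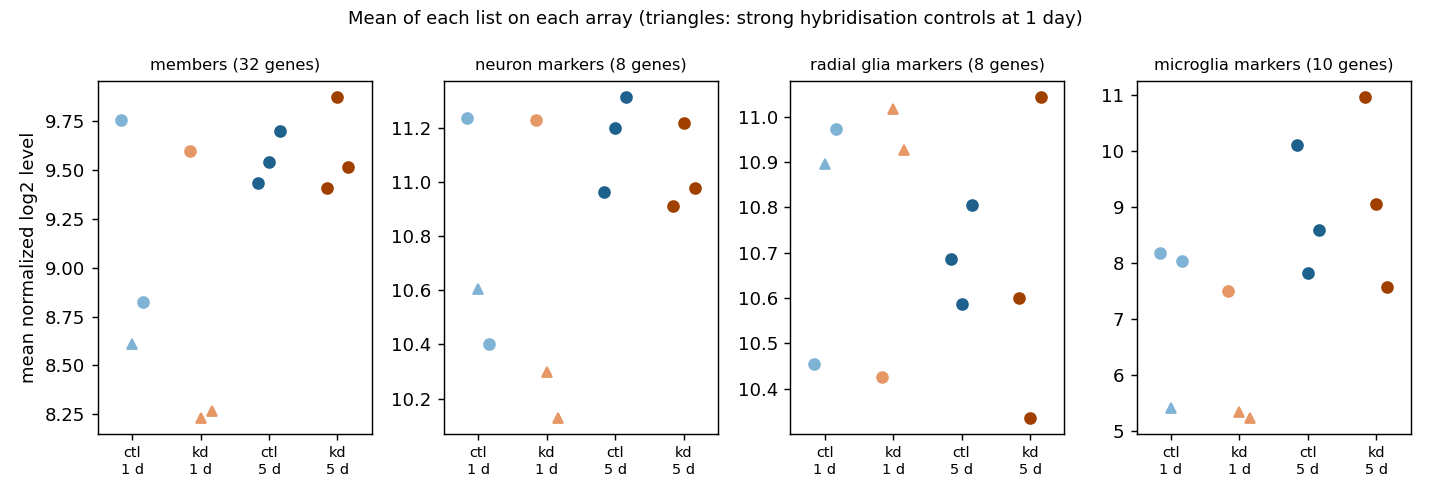
Mean normalized log2 level on each array of the 32 measured genes and of markers of neurons, radial glia and microglia; triangles are 1-day arrays of the strong hybridisation set. The genes and the neuron markers share the high places of control 1 and knockdown 1 at 1 day, and the microglial markers are lowest in the strong set.

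Other genes of vesicle release and granule processing were taken from a list of 46, of which 35 were measured. At 1 day 26 were lower in the knockdowns and 9 higher (median -0.34) and none passed. The smallest p-values belonged to Nsf, the ATPase that takes SNARE complexes apart (log2 fold change -0.79, SE 0.45), the SNARE gene Stx1a (-1.09, SE 0.70) and the active zone scaffold Pclo (-1.06, SE 0.68). At 5 days 19 were lower and 16 higher (median -0.01), again with none past the test. Between the times 29 of 35 were higher in the controls (median 0.66) and 29 in the knockdowns (median 0.90). Vamp4, a SNARE of the Golgi and endosomes, rose by 0.88 in the controls (SE 0.20, limma adjusted p = 0.0389) and 1.01 in the knockdowns (SE 0.20, limma adjusted p = 0.0189). Cpe, the carboxypeptidase that trims peptide precursors in granules, rose in the knockdowns by 0.90 (SE 0.19, limma adjusted p = 0.0276) and had 0.66 in the controls. Erc2, an active zone protein, rose in the knockdowns by 2.04 (SE 0.50, limma adjusted p = 0.0408) and had 1.38 in the controls.

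Rest itself had log2 fold changes of 0.24 (SE 0.33) at 1 day, 0.38 (SE 0.33) at 5 days, 0.15 between the times in the controls and 0.29 in the knockdowns, all overlapping and not past the test. Of 10 genes of REST and its partners none passed at 1 or 5 days after knockdown. Between the times Hdac1, a histone deacetylase of REST complexes, fell by 1.07 in the controls (SE 0.20, limma adjusted p = 0.0182) and by 0.91 in the knockdowns (SE 0.20, limma adjusted p = 0.0283). Rcor2, a corepressor, fell by 1.46 in the knockdowns (SE 0.34, limma adjusted p = 0.0364) and had -1.17 in the controls. Over the 10 genes 4 were higher and 6 lower in each time comparison (medians -0.10 and -0.12). Hdac2 had 0.59 in the controls (SE 0.25), without overlap but not past the test. At 5 days after knockdown Rcor2 had -0.74 (SE 0.34), below all controls, as 1.69% of all probe sets were.

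Different probe sets of 1 gene often disagreed. Of the 18 genes with several kept probe sets, the knockdown change had opposite signs in 7 at 1 day and in 5 at 5 days, and the time change in 6 of the controls and 6 of the knockdowns. The like share over all genes was not counted. Syt1, the main calcium sensor of fast release, had 1.20 and -0.26 in its 2 probe sets between the times in the controls, while the knockdowns had 1.77 and -0.62. Syt4 and Stmn3 had the same sign in all their probe sets in both time comparisons. Vgf, below the filter, had log2 fold changes of -0.43 at 1 day and 0.53 at 5 days after knockdown (SE 0.80 each) when all probe sets were fitted.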

How the data were processed

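Total RNA was labelled with biotin and hybridised to Affymetrix 3′ expression arrays, per the labels' protocols. The table deposited by the authors gives 1 intensity per probe set and array on a linear scale. Neither the background correction nor the probe summary and scaling is given in the sources used here. Instrument files gave fluidics station, scanner and chip lot.

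After quantile normalization of the 12 arrays, log2(intensity + 16) was computed, a scale on which dim probe sets change less. Leaving aside 64 control probe sets, the 60% with the highest mean log2 entered the fit (27022). All arrays entered 1 limma 3.58.1 fit (R 4.3.3) of 4 group means without covariates (8 residual degrees of freedom). It compared knockdown with control at 1 day and at 5 days, took the difference of these effects, and compared 5 days with 1 day in each condition. Benjamini-Hochberg adjustment ran over all kept probe sets, with a threshold of 0.05. The script was tested on simulated data. The number of arrays limits the precision.

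A gene's value is that of its brightest kept probe set. Probe sets with 1 gene symbol numbered 34958, with several 932 and with none 9211. Genes given in full were, for time, those past the threshold without overlap. For knockdown they were those without overlap. Where fewer than 4 qualified, the smallest unadjusted p filled the list. The genes and lists were chosen with earlier results of these data known. Replicate numbers were not treated as pairs. Same-numbered controls and knockdowns had correlations of deviations of 0.92, 0.90 and -0.42 at 1 day and -0.13, -0.016 and 0.096 at 5 days. At 1 day control 2 also had 0.87 with knockdown 3, and control 3 had 0.51 with knockdown 1, arrays of the same hybridisation set. The 1-day values followed these sets, so they cannot decide whether the samples were paired. Alternatives covered scaling, pseudocount, filter, probe set averaging, blocks, array sets, weights and leaving out each array. Promoters came from RefSeq (GRCm38.p6).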

Additional observations from a re-analysis of the deposited data

How the results depend on the processing

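With 1 array left out, the members past the threshold ran from 0 to 0 in both knockdown comparisons and their difference, from 0 to 3 for time in the controls and from 0 to 15 in the knockdowns. The probe sets past it ran from 0 to 0, from 247 to 1520 and from 341 to 7727. The medians over the genes ran from -0.99 to -0.050 at 1 day, from -0.14 to 0.18 at 5 days, from 0.12 to 0.95 for their difference, from 0.30 to 0.95 for time in controls, and from 0.63 to 1.38 in knockdowns. In the weak set alone the 1-day median was 0.30, that of the difference -0.32, that of time in the knockdowns -0.039 with 217 probe sets and 0 genes past, and Cplx2, Syn1, Celsr3 and Nefm turned to 0.055, 0.20, 0.21 and 0.30 at 1 day. In the strong set alone 6753 and 12415 probe sets and 16 and 22 genes passed for time in controls and knockdowns (knockdown median 1.38). The hybridisation set as a block gave 6213 and 6327 probe sets and 10 and 12 genes, and the scanner block 279 and 44, with 0 genes in each. Replicate numbers were not treated as pairs in the main fit. The replicate block gave 1712 and 4215 probe sets and 6 and 12 genes for time, and 0 for knockdown. With no normalization, which moved the median of all probe sets by 0.86 and 0.85, 13135 and 13533 probe sets and 21 and 26 genes passed (medians 1.72 and 1.90). Scaling to a trimmed mean, which moved it by -0.28 and -0.21, gave 4360 and 5697 probe sets and 3 and 5 genes in controls and knockdowns. No filter gave 1702 and 3026 probe sets, and averaging a gene's probe sets 528 and 918 genes. Estimated array weights, whose estimation ended without converging (weights from 0.0035 to 34.3), gave 21029 probe sets and 22 genes at 1 day, 10712 and 8 for the difference, and for time 16962 and 26 in controls, 13442 and 17 in knockdowns, and turned the difference of Scg2 to -0.095. The 5-day knockdown counts stayed at 0 under every alternative run. The cause of these changes was not tested.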

Other observations

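The probe sets of some genes of the set split in opposite directions between the hybridisation sets of the 1-day arrays, a comparison chosen after the values were seen. Of the 18 genes with several kept probe sets, 6 had at least 1 probe set higher and 1 lower in the strong set, and in 2 of these, Syt1 and Dnm1, neither of the opposed probe sets overlapped between the sets. Like counts over all genes were not taken. Of all kept probe sets 46.4% lay below and 28.8% above in the strong set, so the counts do not set these genes apart. The strong set minus the weak set was -1.53 and 2.58 for the 2 probe sets of Syt1, and -2.89 and 0.58 for those of Dnm1. It was -1.04 and 1.03 for Rims1, -2.21 to 0.30 for Syt7, and -1.63 to 0.98 for Ina, the alpha-internexin subunit of neurofilaments. In 12 genes all kept probe sets went the same way, among them Cplx1 (-2.88 to -2.07) and Bsn (-2.57 and -2.38).

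At 5 days knockdown 2 was the lowest of the 6 arrays for Scg5, Syp, Sv2a, Vamp2, Rab3a, Stmn2 and Stmn3. It was the highest for 19 other genes of the set, among them Scg2, Syt7, Syn1 and Bsn. Over all kept probe sets this array was the lowest for 34.5% and the highest for 36.0%.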
